A study of Mus musculus with 18 samples.

Results

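Neutrophils sorted from the intestine were compared with neutrophils sorted from the lung, in 6 RNA-seq libraries of the 18 in the series. The members were the 3 libraries labelled Intestine and the 3 labelled Lung, taken by their labels and not by any measured value. The 18 libraries cover 6 sources (bone marrow, blood, spleen, lung, intestine and skin), with 3 libraries each. All donors were C57BL/6 mice of 8 to 12 weeks, with no mutant allele, transgene or treatment named, and the intestine samples came from the colon. Cells were sorted by flow cytometry with antibodies to CD45, CD11b and Ly6G and the dead-cell dye DAPI, and the labels give a purity typically over 95%. The labels do not say whether the 3 libraries of a tissue came from separate mice, nor their sex, so p-values measure only the spread between these libraries. Blood levels are given beside the results as a description, with no test.

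Neutrophils are short-lived granulocytes that are made in the bone marrow, circulate in blood and enter tissues through receptors for chemokines and bacterial products. They carry antimicrobial proteins in granules that are filled in an ordered series during maturation, and they make reactive oxygen through the NADPH oxidase. Outside the blood they can switch on immediate early genes and NF-kappaB target genes, among them those for interleukin-1, chemokines and the inhibitors that end the response. The lung holds a large pool of neutrophils inside its own capillaries, while few neutrophils are found in the wall of the healthy colon, where macrophages and IgA-secreting plasma cells are the abundant leukocytes.

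Values are deposited scaled counts: estimated counts per 1e6 of an effective library size, not divided by gene length. Levels are therefore compared between libraries for 1 gene, and not between genes. A log2 difference is always Intestine minus Lung on log2(value + 1), followed by its standard error (SE), so a negative value means a higher level in Lung. Adjusted p-values come from limma's moderated test over all 13404 tested genes with Benjamini-Hochberg adjustment, and a gene passed where this was under 0.05. Estimated counts totalled 9.86, 9.92 and 10.9 times 1e6 in Intestine replicates 1, 2 and 3, and 2.94, 10.8 and 9.38 times 1e6 in Lung. Lung replicate 1 was thus the shallowest library, in which 3 counts were worth 0.784. Replicates of a tissue differed by a root mean square of 1.23 to 1.69 on the log2 scale over genes. No pair of libraries was close to identical.

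Before the comparison, the libraries were checked against the genes that define a neutrophil. Ly6g, the gene of the antigen used for sorting (chr15:75155240-75159126 on GRCm38, + strand), had values of 3.14, 0.410 and 0.346 in Intestine. In Lung it had 37.2, 20.1 and 19.9, and in Blood 102, 237 and 69.3. The gene was thus near 0 in 2 of the 3 Intestine libraries and lower in all 3 than in any Lung or Blood library, with a log2 difference of -3.69 (SE 0.89, adjusted p = 0.016). That call was lost in 4 of 20 alternative analyses, among them those without Intestine replicate 3 or without Lung replicate 2.

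The other 2 sorting antigens showed the same order. Ptprc, which encodes CD45 and is carried by all leukocytes, had 617, 408 and 515 in Intestine and 2103, 2997 and 5398 in Lung. Itgam, which encodes CD11b, had 254, 145 and 204 in Intestine and 524, 836 and 1348 in Lung. Neither gene's groups overlapped. Itgam had a log2 difference of -2.09 (SE 0.39, adjusted p = 0.0035).

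Over a list of 34 neutrophil identity genes, the summed level was 1620 to 2265 in Intestine, 10218 to 30980 in Lung and 44830 to 49029 in Blood. As a share of all estimated counts this was 0.217% ± 0.0205 (SD, n = 3) in Intestine, 2.08% ± 0.812 (SD, n = 3) in Lung and 4.77% ± 0.195 (SD, n = 3) in Blood. The exact permutation test of Intestine against Lung gave the smallest p that 3 against 3 libraries allow, 0.1, two-sided. The Intestine libraries therefore go against their label as nearly pure neutrophils by these markers, and all 3 do so alike. In bulk RNA, fewer neutrophils and less neutrophil RNA per cell cannot be told apart.

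**Figure D1:**
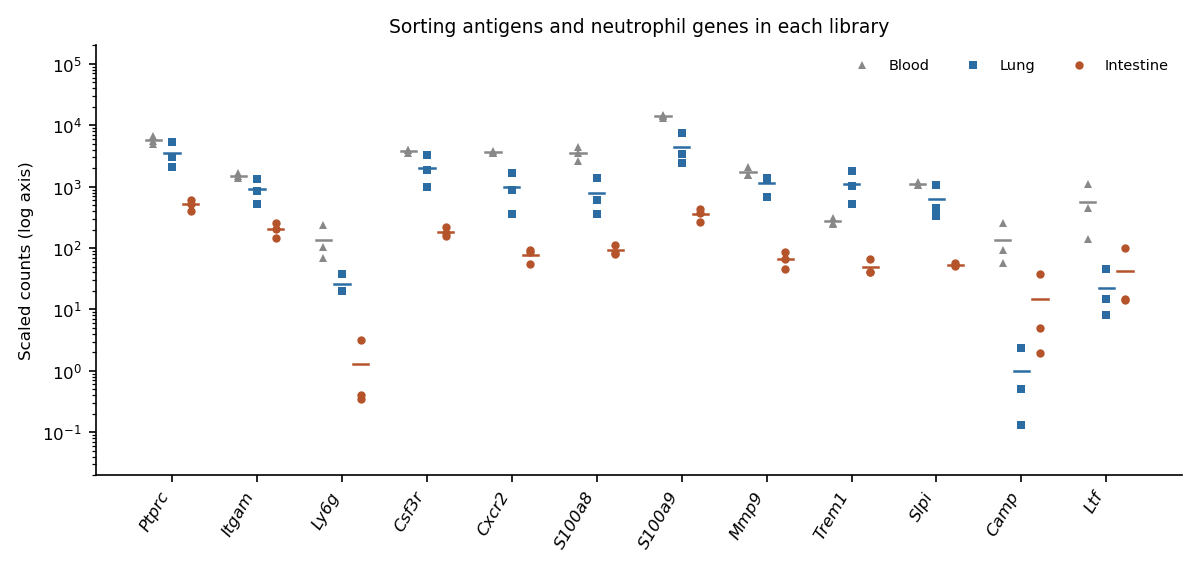
Scaled counts on a log axis for the 3 sorting antigens and 9 neutrophil genes, with each point a library, each bar the mean of 3 libraries, and groups set apart by colour and shape. From Ptprc to Slpi the Intestine points lie below the Lung points, as for S100a9 with 267 to 430 against 2388 to 7486, while the Ltf points overlap and the Camp points of Intestine lie mostly above those of Lung.

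Marker lists of several other cells were higher in Intestine. The summed level of 20 fibroblast genes was 13697 to 25258 in Intestine, 930 to 4491 in Lung and 278 to 512 in Blood. The plasma cell list summed to 9779 to 31651 in Intestine and 190 to 479 in Lung. The smooth muscle list summed to 3906 to 10490 in Intestine and 1176 to 1736 in Lung. None of these ranges overlapped between the tissues. The tissue macrophage list summed to 2161 to 3731 in Intestine against 716 to 1262 in Lung, and the colon epithelium list to 548 to 1211 against 138 to 154. In Lung, the lung epithelium list summed to 1061 to 4369 against 93.4 to 383 in Intestine, and the endothelial list, at 2281 to 8238 against 1600 to 4479, overlapped between the tissues. Other lists were lower in every Intestine library than in any Lung library. The eosinophil list summed to 225 to 253 in Intestine against 617 to 626 in Lung. Epx and Prg3 of that list had no count in any of the 6 libraries. The mast cell and basophil list summed to 65.1 to 109 against 419 to 738, with 669 to 907 in Blood. Of its 13 genes, 10 were too low to be tested, among them Cpa3, Mcpt4 and Tpsb2, and 1 of the other 3 passed. Neither sum says which cells held the transcripts. The B cell list summed to 195 to 364 in Intestine against 365 to 1114 in Lung, and the monocyte list to 2852 to 3873 against 3886 to 5152. The part of these other cells in each difference below was not tested, except where a measured value is given.

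**Figure D2:**
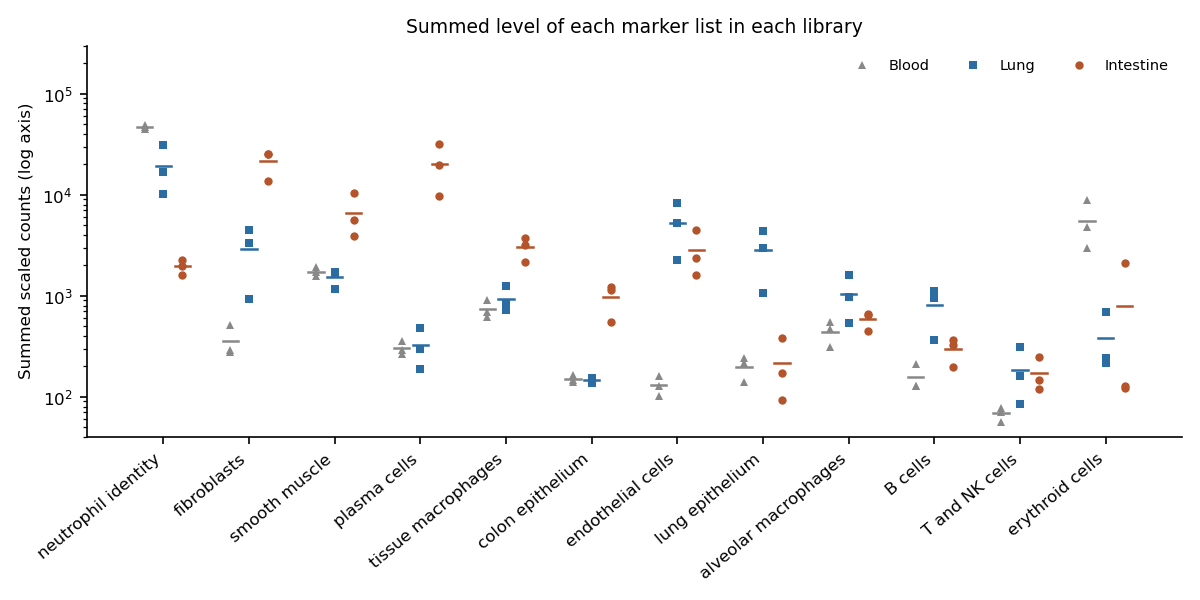
Summed scaled counts on a log axis for 12 marker lists, with each point a library, each bar the mean of 3 libraries, and groups set apart by colour and shape. The neutrophil identity sum falls from Blood (44830 to 49029) through Lung to Intestine (1620 to 2265), while the fibroblast, smooth muscle, plasma cell, tissue macrophage and colon epithelium sums are higher in every Intestine library than in any Lung library.

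The share of estimated counts from mitochondrially encoded genes also differed between libraries. It was 23.2%, 8.58% and 8.24% in Intestine and 2.45%, 2.87% and 1.93% in Lung. The mean in Blood was 0.218%. Every Intestine library lay above every Lung library, by 10.9 percentage points on average (exact permutation test, two-sided, p = 0.1, the smallest possible). Intestine replicate 1 stood apart with the highest share.

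Of the 13404 tested genes, 1599 passed (11.9%), with 726 higher in Intestine (5.42%) and 873 higher in Lung (6.51%). Each count of list members below is to be read beside these shares. The median log2 difference over all tested genes was 0.084, and 0.22 when values were rescaled without the mitochondrially encoded genes, which left 705 genes higher in Intestine and 696 higher in Lung. The 2 sides differed in kind. Genes higher in Lung had a median Blood level of 231, against 1.67 for genes higher in Intestine. No estimated count was found in any Lung library for 73 of the 726, and in any Intestine library for 17 of the 873. A difference over 3 on the log2 scale was seen for 400 of the 726 and for 232 of the 873. The number of passing genes depended on single libraries, and was 827 without Intestine replicate 3, 908 without Lung replicate 2 and 950 without Intestine replicate 2.

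**Figure D3:**
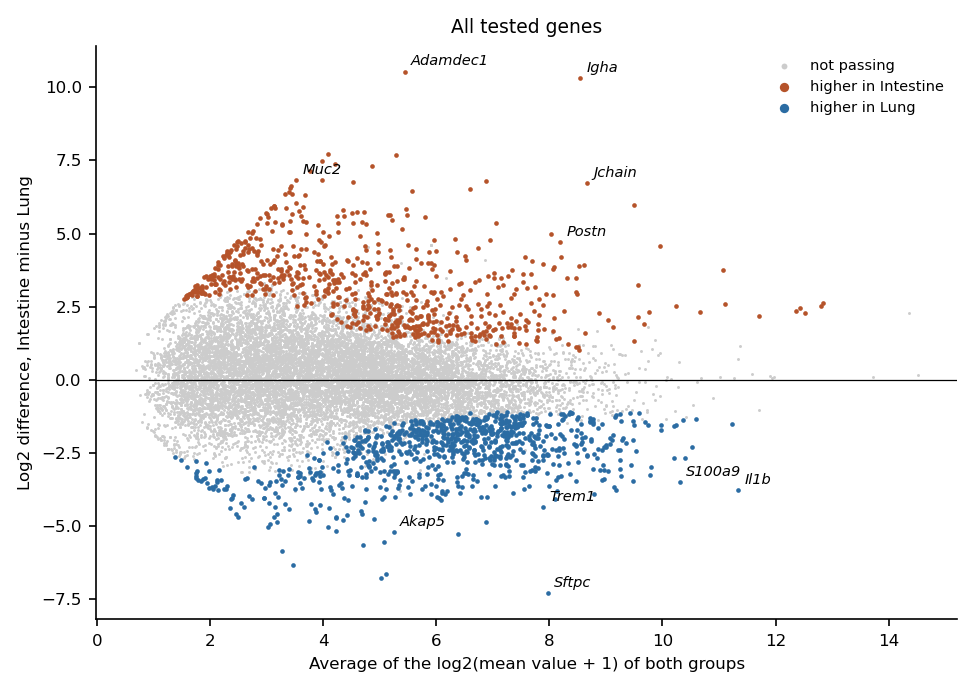
Log2 difference (Intestine minus Lung, y axis) against the average of the log2(mean value + 1) of both groups (x axis) for the 13404 tested genes, one point per gene, coloured by whether and in which direction the gene passed. Adamdec1 and Igha lie above 10 on the y axis, and Sftpc, Akap5 and Trem1 lie among the lowest points, higher in Lung.

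The 12 protein-coding genes with the largest differences toward Intestine, outside the marker lists, were led by Adamdec1 (chr14:68563380-68582095, - strand), which encodes a secreted metalloprotease-like protein of the gut wall. Its values were 820, 2038 and 2435 in Intestine, and it had no estimated count in any Lung library. With 3 counts per Lung library as the floor it was at least 3895-fold higher in Intestine (log2 difference 10.54, SE 0.49, adjusted p = 6.4e-08). In Blood it had 3.77, 1.69 and 11.8.

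Several of the 12 belong to connective tissue and muscle. Tnc, which encodes the matrix protein tenascin C, had 575, 743 and 815 in Intestine and 19.7, 17.02 and 0.168 in Lung. Col6a5, a collagen VI chain, had 92.1, 86.5 and 144 in Intestine and no count in Lung. Casq2, which encodes a calcium store protein of muscle, had 68.7, 136 and 111 in Intestine and no count in Lung. Each was thus far above Lung in every Intestine library, with log2 differences of 6.54, 6.62 and 6.57. Pdlim3, a partner of alpha-actinin, had 39.99, 105 and 63.5, with no count in Lung. Mmp13, a collagenase, had 134, 64.6 and 42.7 in Intestine against 0.131, 0.0397 and 0.618 in Lung.

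Others of the 12 are known from the gut. Nkx2-3, a homeobox factor of gut and spleen mesenchyme, had 40.1, 69.8 and 88.2 in Intestine, with no count in Lung. Glp2r, the receptor for glucagon-like peptide 2, had 118, 72.5 and 102 in Intestine and at most 0.168 in Lung. Neither gene exceeded 0.490 in a Blood library. The remaining members were Fat1, C1qtnf3, Cadm3 and Syt13, with log2 differences of 7.48, 6.31, 6.06 and 5.95. All 12 kept the call in each of the 20 alternatives.

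The 12 largest differences toward Lung mixed neutrophil and lung genes. Kif23, a kinesin of cell division, had 0.300, 0.0415 and 0.311 in Intestine and 38.5, 67.9 and 121 in Lung, close to the 48.0, 81.9 and 96.6 of Blood. Padi4, which citrullinates histones when neutrophils form extracellular traps, had 1.12, 1.70 and 6.03 in Intestine, 71.5, 85.6 and 106 in Lung and 142, 143 and 189 in Blood. Akap5, a kinase scaffold, had 7.69, 2.27 and 6.43 in Intestine and 226, 264 and 175 in Lung, with 5.78 to 17.7 in Blood. Kif23 in Lung thus overlapped with Blood, Padi4 was higher in Blood, and Akap5 was high in Lung alone of these 3 sources. Cxcl15, a chemokine of lung epithelium, had 238, 209 and 55.5 in Lung and 0.0532, 7.70 and 1.45 in Intestine. Upk3b, known from mesothelium, had 37.5, 66.8 and 22.5 in Lung and at most 2.26 in Intestine. The others were Sec14l3, Hc, Sox11, Vnn3, Clec1a, Bcl2a1a and Gm14548. Bcl2a1a and Gm14548 have near-identical copies, so their reads may be split. Hc lost its call in 3 alternatives, one of them without Lung replicate 2, and Bcl2a1a in 1.

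Most genes of neutrophil identity were lower in Intestine. Of 33 tested members, 28 were higher in Lung and none was higher in Intestine, against 6.51% of all tested genes higher in Lung. The median log2 difference was -3.11, and between -3.50 and -2.73 in the alternatives. In 30 of the 33, all 3 Lung libraries lay above all 3 Intestine libraries, against 15.5% of all tested genes.

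S100a9 (chr3:90692632-90695721, - strand), which with S100a8 encodes calprotectin, the main cytosolic protein of neutrophils, had 430, 267 and 377 in Intestine. It had 2388, 3424 and 7486 in Lung and 13207 to 15001 in Blood. The log2 difference was -3.48 (SE 0.45, adjusted p = 0.00033), a Lung mean 12.4 times that of Intestine. S100a8 had 112, 83.5 and 79.7 in Intestine and 362, 601 and 1364 in Lung. Neither gene overlapped between the tissues, and both were highest in Blood. Csf3r, the receptor for the growth factor G-CSF, had 176, 219 and 160 in Intestine and 971, 1888 and 3230 in Lung. Trem1, a receptor that amplifies inflammatory signals, had 65.4, 40.4 and 41.5 in Intestine and 529, 1018 and 1801 in Lung. Trem1 stood apart from S100a9 in being lower in Blood, at 248 to 305, than in any Lung library.

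Promoters of neutrophil identity genes are shown because members of the group moved together and C/EBP factors, which drive granulocyte development, bind sites of the form TTGCNNAA. This motif, searched on both strands, lay within 250 bases upstream of the start of 10 of 27 group genes with a RefSeq promoter: Clec4e, Gfi1, Lcn2, Ltf, Ly6g, Mmp8, Ngp, Retnlg, S100a9 and Slpi. It lay in 9.56% of all 32851 promoters of this length. Of these 10, Ltf and Ngp did not pass and Gfi1 was not tested. Those of S100a9 and Ly6g follow, from RefSeq on GRCm38.p6, 5′ to 3′ on the gene's strand, with the motif in capitals. A match describes letters and is not evidence of binding.
S100a9, chr3:90695722-90695971, - strand: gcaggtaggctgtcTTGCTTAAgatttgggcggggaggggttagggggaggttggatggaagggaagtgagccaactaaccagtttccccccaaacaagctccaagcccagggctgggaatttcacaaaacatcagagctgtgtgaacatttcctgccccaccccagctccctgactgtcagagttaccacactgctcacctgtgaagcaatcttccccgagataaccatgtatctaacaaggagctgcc
Ly6g, chr15:75155011-75155260, + strand: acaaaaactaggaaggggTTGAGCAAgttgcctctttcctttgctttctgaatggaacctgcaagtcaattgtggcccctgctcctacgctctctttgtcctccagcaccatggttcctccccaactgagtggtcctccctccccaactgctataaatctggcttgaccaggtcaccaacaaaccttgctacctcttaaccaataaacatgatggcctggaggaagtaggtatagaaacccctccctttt
The first base of the motif lay 236 bases before the S100a9 start and 232 before the Ly6g start. In Ly6g the match is on the opposite strand.

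Granule genes were lower in Intestine in part. Of 22 tested genes of specific and gelatinase granules, 12 were higher in Lung and none in Intestine, with a median of -1.97. Mmp9, the gelatinase of gelatinase granules, had 44.7, 66.0 and 87.1 in Intestine and 675, 1311 and 1412 in Lung (log2 difference -4.06, SE 0.38, adjusted p = 5.9e-05). Slpi, a protease inhibitor, had 50.8, 53.7 and 56.5 in Intestine and 337, 456 and 1069 in Lung. Neither gene overlapped between the tissues. Ltf and Camp, which encode lactoferrin and the cathelicidin of specific granules, did not pass. Ltf had 99.7, 14.9 and 14.5 in Intestine and 45.1, 14.96 and 8.03 in Lung (adjusted p = 0.68). Camp had 38.1, 4.94 and 1.96 in Intestine and 0.131, 2.34 and 0.505 in Lung (adjusted p = 0.19). For each, Intestine replicate 1 was the highest of the 6, and Blood reached 1111 for Ltf and 252 for Camp.

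Of 8 tested azurophil granule genes, made at the promyelocyte stage, 2 were higher in Intestine and 1 in Lung, against 5.42% and 6.51% of all tested genes. Mpo, the myeloperoxidase gene, was at most 1.05 in any of the 6 libraries and was not tested, and Elane had no estimated count in any of them. Srgn, the proteoglycan of granules, had 196, 266 and 280 in Intestine and 1231, 1668 and 3023 in Lung. Cd63, a granule and lysosome membrane protein of many cells, was the reverse, with 280, 532 and 400 in Intestine and 89.0, 129 and 144 in Lung. Ctsc, the activator of granule proteases, was also higher in Intestine but lost its call in 7 alternatives.

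The oxidase list held 6 of 10 genes higher in Lung and none higher in Intestine, with a median of -1.62. Leaving out Intestine replicate 2, Intestine replicate 3 or Lung replicate 2 brought the Lung count to 4. Ncf1, the cytosolic organiser subunit, had 101, 96.4 and 109 in Intestine and 583, 956 and 845 in Lung. Rac2, the GTPase of the complex, had 113, 93.8 and 73.3 against 247, 471 and 697. Both genes were separated between the tissues, with Intestine libraries close together and Lung libraries spread. Cyba and Ncf4 also passed but lost their calls in 9 and 6 alternatives.

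Receptors that guide neutrophils were mostly lower in Intestine where they passed. Of 20 tested trafficking receptors, 11 were higher in Lung and 1 in Intestine, with a median of -2.15. Without Intestine replicate 3 or Lung replicate 2, 8 were higher in Lung. Cxcr2, the receptor for neutrophil-attracting chemokines, had 84.7, 55.7 and 92.1 in Intestine, 356, 900 and 1699 in Lung and 3492 to 3839 in Blood. Cxcr4, which holds neutrophils in the marrow and rises with age, had 57.6, 79.5 and 88.4 in Intestine, 258, 535 and 880 in Lung and 264 to 512 in Blood. Cxcr2 was thus ordered Blood, Lung, Intestine without overlap, while Cxcr4 in Lung overlapped with Blood. C5ar1, the complement C5a receptor, had 130, 99.2 and 172 in Intestine and 540, 931 and 1490 in Lung.

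C3ar1, the complement C3a receptor, which macrophages also carry, was the gene higher in Intestine. It had 248, 176 and 180 in Intestine and 40.8, 8.87 and 4.49 in Lung (log2 difference 3.93, SE 0.61, adjusted p = 0.001). The macrophage complement gene C1qb moved with it, at 170, 53.4 and 122 in Intestine and 18.9, 2.42 and 0.842 in Lung. The part of macrophages in the C3ar1 difference was not tested.

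Ccrl2, a chemokine-binding receptor of activated cells that was singled out after its values were seen, had 121, 152 and 205 in Intestine and 476, 1178 and 1401 in Lung. In Blood it had 18.4, 12.1 and 22.03. Lung was highest for this gene, and every Intestine library still lay above every Blood library.

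Of 20 adhesion genes, 9 were higher in Lung and none in Intestine, with a median of -1.13. Without Lung replicate 2, 6 were higher in Lung. Itgal, a subunit of the integrin LFA-1, had 67.2, 64.9 and 111 in Intestine and 441, 840 and 982 in Lung. Itgb2, the shared chain of LFA-1 and Mac-1, had 131, 80.5 and 87.9 in Intestine and 396, 642 and 784 in Lung. Both leukocyte genes were separated. Adhesion genes that other cells share, such as Pecam1, Itgb1, Itgav and Icam1, did not pass.

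Several genes that restrain NF-kappaB were higher in Lung. Of 22 tested genes of NF-kappaB feedback and its subunits, 11 were higher in Lung and none in Intestine, with a median of -1.39. That count was 7 without Lung replicate 2 and 7 without Lung replicate 3. Tnfaip3 (chr10:19000910-19015657, - strand), which encodes the ubiquitin-editing inhibitor A20, had 90.1, 174 and 217 in Intestine, 1329, 2515 and 2035 in Lung and 58.1, 44.5 and 53.1 in Blood. Its log2 difference was -3.64 (SE 0.40, adjusted p = 0.00014). Nfkbiz, an inducible co-regulator of NF-kappaB, had 129, 150 and 182 in Intestine, 1413, 2776 and 2232 in Lung and 310 to 449 in Blood. Nfkbia, the inhibitor IkappaB-alpha that NF-kappaB induces, had 168, 123 and 158 in Intestine, 824, 1553 and 1406 in Lung and 123 to 160 in Blood. Lung was highest for all 3 genes. Against Blood, Intestine was higher for Tnfaip3, lower for Nfkbiz and overlapping for Nfkbia. The subunit Rel passed, at 127, 101 and 68.2 in Intestine and 355, 433 and 432 in Lung, while the subunits Rela, Relb, Nfkb1 and Nfkb2 did not.

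The promoters of 2 inducible genes are shown because both hold letters that match an NF-kappaB motif. The motif, GGG followed after any 2 bases by TTTCC and searched on both strands in the 250 bases upstream of the start, was in 5 of 18 list genes with a RefSeq promoter (Nfkb2, Nfkbia, Rel, Tank and Tnfaip3) and in 6 of 21 chemokine and cytokine genes (Ccl9, Csf1, Cxcl1, Cxcl2, Cxcl3 and Il6). It was in 1.41% of all 32851 promoters, and in 0 of 27 immediate early genes with a RefSeq promoter. The AP-1 motif TGANTCA was also searched and is in 6.75% of promoters, in 4 of the 18 list genes and in 6 of the 21 chemokine and cytokine genes, the same count there as the NF-kappaB motif. Genes with the NF-kappaB motif include members that did not pass, such as Tank, Nfkb2 and Il6. Here too, a match is not evidence of binding. Sequences are from RefSeq on GRCm38.p6, 5′ to 3′ on the gene's strand, with the motif in capitals.
Nfkbia, chr12:55492648-55492897, - strand: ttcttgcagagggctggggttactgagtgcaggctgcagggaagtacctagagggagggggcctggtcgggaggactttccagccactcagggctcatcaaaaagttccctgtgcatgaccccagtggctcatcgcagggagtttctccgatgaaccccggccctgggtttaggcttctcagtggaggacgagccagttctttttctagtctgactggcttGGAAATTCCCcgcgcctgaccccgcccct
Cxcl2, chr5:90903649-90903898, + strand: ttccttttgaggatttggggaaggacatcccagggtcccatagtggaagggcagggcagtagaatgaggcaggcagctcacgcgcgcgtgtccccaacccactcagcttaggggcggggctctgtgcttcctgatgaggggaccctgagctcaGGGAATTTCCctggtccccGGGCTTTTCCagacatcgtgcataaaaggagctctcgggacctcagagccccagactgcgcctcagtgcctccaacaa
The Nfkbia match is on the opposite strand, beginning 29 bases before the start, and Cxcl2 holds 2 matches, beginning 97 and 78 bases before it.

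Interleukin-1 genes followed. Of 21 tested genes of this family and the inflammasome, 8 were higher in Lung and 1 in Intestine, with a median of -1.18. Il1b (chr2:129364570-129371139, - strand), the secreted cytokine, had 609, 641 and 751 in Intestine, 5329, 9252 and 15314 in Lung and 2640 to 3745 in Blood. The Lung mean was 14.9 times that of Intestine (log2 difference -3.77, SE 0.48, adjusted p = 0.00029). Nlrp3, the sensor that starts its cleavage, had 56.3, 43.4 and 47.5 in Intestine and 404, 716 and 986 in Lung. Il1rn, the natural receptor antagonist, had 52.2, 73.1 and 133 in Intestine and 386, 643 and 692 in Lung. Cytokine, sensor and antagonist were thus all higher in Lung without overlap. Il1a, the membrane-associated relative of Il1b, had 7.93, 8.92 and 19.3 in Intestine, 72.5, 89.8 and 34.0 in Lung and at most 0.816 in Blood, and lost its call in 6 alternatives. The signalling receptor Il1r1, which stromal cells carry, was the member higher in Intestine. No member was higher in Intestine without any one Intestine library or without Lung replicate 2.

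Of 24 tested chemokine and cytokine genes, 8 were higher in Lung and none in Intestine, with a median of -1.33. The count was 5 without Lung replicate 2. Cxcl2, a ligand of CXCR2, had 56.3, 36.6 and 69.3 in Intestine, 435, 551 and 1203 in Lung and 12.9 to 38.4 in Blood. Cxcl1, a second CXCR2 ligand, had 22.3, 35.4 and 21.3 in Lung and at most 0.266 in any Intestine library. Tnf had 33.3, 53.0 and 20.0 in Lung, and 0.0532, 3.36 and 0.0384 in Intestine. Cxcl1 was near 0 in every Intestine library and Tnf in 2 of 3, while Cxcl2 was present in all 3. Osm, an interleukin-6 family cytokine of neutrophils, had 47.6, 34.1 and 49.1 in Intestine and 262, 364 and 781 in Lung. Tgfb1, a widely made suppressive cytokine, had 34.2, 31.8 and 44.5 in Intestine and 31.8, 94.3 and 76.5 in Lung and did not pass (log2 difference -0.73, 95% interval from -1.76 to 0.29). Il10 had 2.71 in Intestine replicate 1 and no count in the other 5 libraries, and was not tested.

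Ptgs2, the inducible cyclooxygenase, was chosen after its values were seen. It had 246, 310 and 342 in Intestine, 1248, 2812 and 3790 in Lung and 55.4, 25.3 and 159 in Blood. Lung again was highest and Intestine lay above Blood in every library.

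Immediate early genes, the first to be transcribed after a stimulus, gave the second largest number of calls among the functional lists after neutrophil identity. Of 34 tested, 21 were higher in Lung and none in Intestine, with a median of -1.87. Those 21 became 14 without Intestine replicate 3, 15 without Lung replicate 2 and 25 without Lung replicate 1. With no trend in the prior, 8 were higher in Lung. Nr4a1, an orphan nuclear receptor, had 90.4, 92.4 and 125 in Intestine, 615, 1363 and 1642 in Lung and 15.1 to 47.7 in Blood. Btg2, an antiproliferative gene, had 246, 240 and 357 in Intestine and 1733, 3013 and 3504 in Lung. Fosb, an AP-1 subunit, had 199, 234 and 167 in Intestine, 704, 959 and 1559 in Lung and 31.7 to 160 in Blood. For Nr4a1 and Fosb, both tissues lay above Blood in every library. Zfp36, which destabilises cytokine mRNAs, had 192, 206 and 141 in Intestine and 908, 1140 and 1440 in Lung. Jun, Myc, Egr2, Egr3 and Klf2 were among the 13 members that did not pass.

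Feedback inhibitors of the MAP kinase pathway were higher in Lung in part. Of 18 tested, 6 were higher in Lung and 1 in Intestine, with a median of -0.38. Over all tested genes the shares were 6.51% and 5.42%, so the 1 call toward Intestine is near the share of all genes. Dusp1, a phosphatase that shuts off p38 and JNK, had 150, 240 and 194 in Intestine and 854, 1395 and 3454 in Lung. Dusp2 had 12.4, 13.1 and 6.26 in Intestine, 72.8, 166 and 87.1 in Lung and at most 3.29 in Blood. Spred1, which restrains Ras, was the reverse, at 152, 95.5 and 111 in Intestine and 15.8, 53.0 and 7.02 in Lung, though its call was lost in 6 alternatives.

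**Figure D4:**
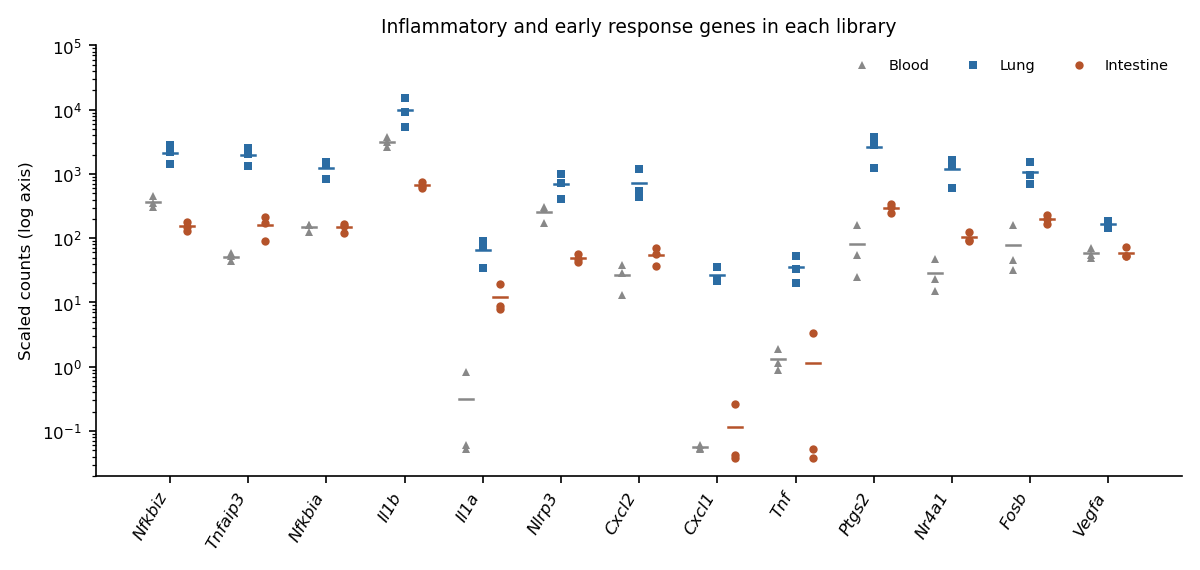
Scaled counts on a log axis for 13 inflammatory and early response genes, with each point a library, each bar the mean of 3 libraries, and groups set apart by colour and shape. Lung lies above Intestine and Blood for all 13. Intestine lies above Blood for genes such as Tnfaip3 (90.1 to 217 against 44.5 to 58.1) and below it for Il1b.

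Because neutrophil identity genes were lower as well, 12 response genes were also expressed per 1000 summed scaled counts of the neutrophil identity list, a description chosen after the values were seen and not tested. On that scale, Tnfaip3 was 39.8, 108 and 110 in Intestine, 130, 149 and 65.7 in Lung and 1.296, 0.907 and 1.14 in Blood. Ptgs2 was 109, 191 and 172 in Intestine and 122, 167 and 122 in Lung, against 0.516 to 3.41 in Blood. Nr4a1 was 39.9, 57.1 and 63.1 in Intestine and 60.2, 80.9 and 53.0 in Lung. The tissues overlapped for these 3 genes, and for 8 of the 12 in all. All 12 were higher in every Intestine library and in every Lung library than in any Blood library. The identity sum that divides them was 1620 to 2265 in Intestine, 10218 to 30980 in Lung and 44830 to 49029 in Blood. This alone raises every tissue ratio against Blood, so that order is not a result about these genes. Before division, Intestine overlapped with Blood for Vegfa, Nfkbia, Cxcl2 and Btg2 and lay below it for Il1b, Nfkbiz and Nlrp3. Il1b and Nlrp3 kept all Lung libraries above all Intestine libraries, with Il1b at 269, 396 and 378 in Intestine and 522, 549 and 494 in Lung. Vegfa and Fosb were higher in all Intestine libraries, with Vegfa at 23.2, 32.7 and 36.3 in Intestine and 18.3, 9.91 and 4.74 in Lung. These ratios do not say which cells held the transcripts, since macrophages and stromal cells can also express them.

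**Figure D5:**
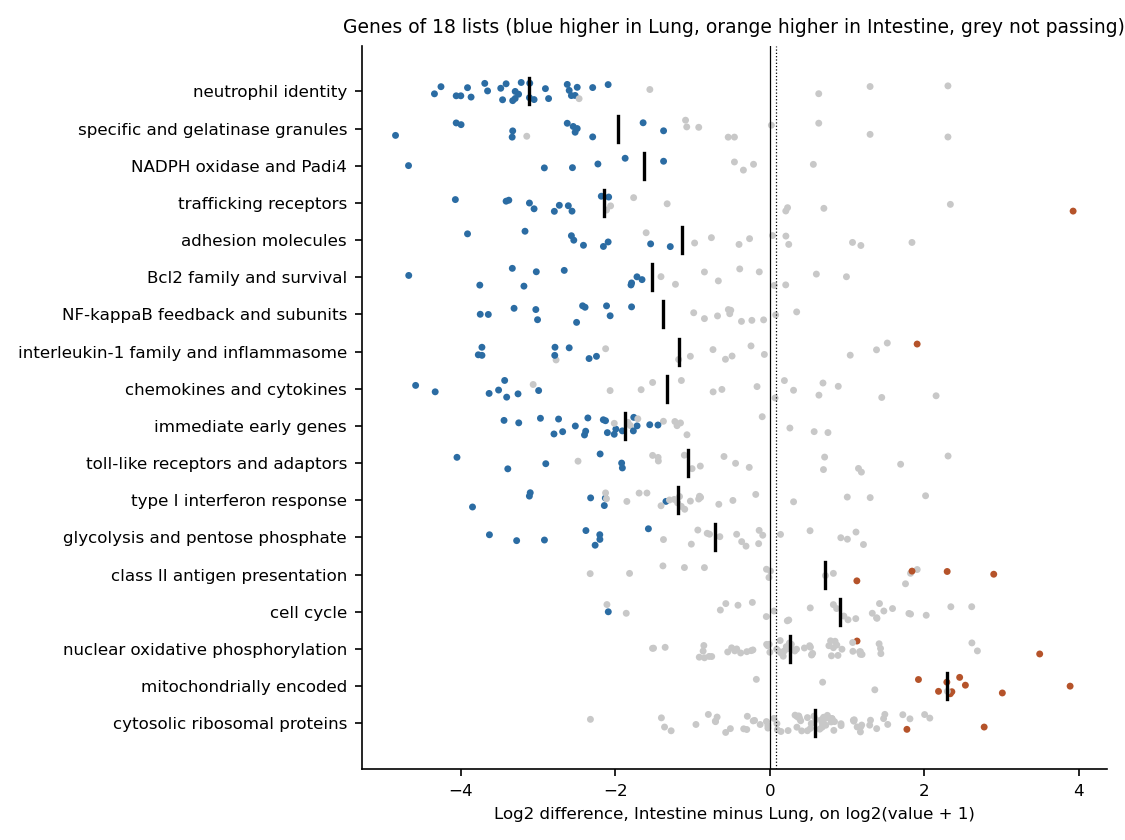
Log2 difference (Intestine minus Lung, x axis) of each tested gene in 18 lists, one point per gene with vertical jitter, the list's median as a black bar, and the median of all tested genes (0.084) as a dotted line. The neutrophil identity list has its median at -3.11 with 28 of 33 genes passing toward Lung, and the mitochondrially encoded list has its median at 2.30 with 9 of 13 genes passing toward Intestine.

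Sensors of microbes were lower in Intestine in part. Of 22 toll-like receptors and adaptors, 6 were higher in Lung and none in Intestine, with a median of -1.06, and the count was 3 without Lung replicate 2. Tlr2, which senses bacterial lipoproteins, had 22.5, 36.5 and 30.2 in Intestine and 223, 303 and 466 in Lung. Cd14, the co-receptor for lipopolysaccharide, had 70.4, 53.2 and 28.4 in Intestine, 253, 344 and 540 in Lung and 35.8 to 65.9 in Blood. Tlr2 and Cd14 did not overlap between the tissues. The adaptor Myd88 passed, at 19.5, 35.7 and 18.5 in Intestine and 63.6, 114 and 189 in Lung. Tlr4 and Tlr5 were among the 16 members that did not pass.

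Part of the type I interferon response was higher in Lung than in Intestine. Of 31 tested, 7 were higher in Lung and none in Intestine, with a median of -1.19, and the count was 4 without Lung replicate 2. Oas3, an antiviral sensor, had 41.1, 85.3 and 82.2 in Intestine, 297, 617 and 1038 in Lung and 1958 to 4112 in Blood. Oasl2 had 48.1, 96.5 and 86.9 in Intestine, 202, 367 and 483 in Lung and 1095 to 2663 in Blood. These 2 genes were ordered Blood, Lung, Intestine without overlap. Isg15, Mx1, Irf7 and Ifit3 did not pass. Of 25 interferon-induced GTPases and interferon gamma genes, 3 were higher in Lung, among them Irf1 and Cd274, against 6.51% of all tested genes. The count was 1 when Intestine replicate 1 or 2 or Lung replicate 2 or 3 was left out, and Cd274 lost its call in 10 alternatives.

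Survival genes were higher in Lung, at 10 of 20 tested with none higher in Intestine and a median of -1.53. The count was 6 without Lung replicate 2. Mcl1, on which neutrophil survival depends, had 401, 509 and 429 in Intestine, 1542, 2966 and 4883 in Lung and 3397 to 4230 in Blood. Pim1, a survival kinase, had 76.8, 83.5 and 65.5 in Intestine, 419, 660 and 846 in Lung and 173 to 250 in Blood. Pmaip1, which encodes the death promoter Noxa, had 23.8, 20.0 and 47.5 in Intestine and 223, 282 and 298 in Lung. Genes for and against survival thus had the same direction. Bcl2, Bcl2l1, Xiap and Bak1, widely expressed members, did not pass.

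Among 21 myeloid transcription factors, 5 were higher in Lung and 1 in Intestine. The number higher in Lung was 3 when Intestine replicate 1 or 3 or Lung replicate 2 or 3 was left out, and the number higher in Intestine was 4 without Lung replicate 1. Cebpb, a factor of emergency granulopoiesis, had 3.67, 5.93 and 8.25 in Intestine and 42.2, 90.2 and 177 in Lung. Spi1, which encodes PU.1, had 26.1, 59.4 and 63.2 in Intestine and 183, 243 and 507 in Lung. Maf, a factor of macrophages, was the gene higher in Intestine, at 103, 121 and 136 against 52.0, 28.8 and 33.7, with its call lost in 5 alternatives.

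Energy metabolism differed by gene set. Neutrophils rely on glycolysis and hold few mitochondria. Of 26 genes of glycolysis and the pentose phosphate pathway, 8 were higher in Lung and none in Intestine, with a median of -0.71, and the count was 5 without Lung replicate 3. Slc2a3, a glucose transporter of leukocytes, had 150, 46.4 and 84.4 in Intestine and 487, 741 and 1537 in Lung. Slc16a3, which exports lactate, had 26.6, 17.6 and 19.4 in Intestine and 146, 249 and 540 in Lung. Pgd, of the pentose phosphate pathway that feeds the oxidase, had 144, 114 and 104 in Intestine and 360, 661 and 1030 in Lung. The passing genes were thus transporters and pentose phosphate enzymes together with Hk3 and Pfkfb4, and the core enzymes Gapdh, Aldoa, Pgk1, Eno1, Pkm and Ldha did not pass.

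Mitochondrially encoded genes went the other way, at 9 of 13 higher in Intestine and none in Lung, with a median of 2.30. The count was 3 without Intestine replicate 1, 5 without Intestine replicate 3 and 3 without Lung replicate 2. mt-Nd4, a subunit of complex I, had 24707, 7888 and 8990 in Intestine, 2182, 2210 and 2189 in Lung and 187 to 206 in Blood. Every Intestine library was above every Lung library, and Intestine replicate 1 was far above the other 2. Of 62 nuclear genes of oxidative phosphorylation, 2 were higher in Intestine, against 5.42% of all tested genes, with a median of 0.26. These were Atp5a1 and Atp5g2, lost in 10 and 9 alternatives. Of 76 cytosolic ribosomal protein genes, 2 were higher in Intestine (Rpl3 and Rpl31), with a median of 0.58, a share below the 5.42% of all genes. That count was 0 without any one Intestine library, 1 without Lung replicate 2 and 9 without Lung replicate 1.

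Angiogenic factors divided between the tissues. Of 25 tested, 8 were higher in Lung and 3 in Intestine, with a median of -0.20, and the number higher in Lung was 5 without Intestine replicate 2 and 5 without Lung replicate 2. Vegfa, the main endothelial growth factor, had 52.6, 53.0 and 72.2 in Intestine, 187, 167 and 147 in Lung and 48.8 to 71.5 in Blood (log2 difference -1.49, SE 0.35, adjusted p = 0.013). The Vegfa call was lost in 4 alternatives, and Intestine overlapped with Blood. Plau, which encodes urokinase, had 67.4, 67.4 and 114 in Intestine and 4.88, 1.07 and 0.168 in Lung, whereas its receptor Plaur had 16.97, 12.7 and 19.2 in Intestine and 94.5, 120 and 344 in Lung. Ligand and receptor thus lay on opposite sides. Nrp2, a co-receptor for semaphorins and VEGF-C, had 211, 342 and 250 in Intestine and 40.3, 72.6 and 52.2 in Lung. Of 18 hypoxia genes, 4 were higher in Lung (Bnip3l, Vegfa, Mxi1 and Slc2a1) and P4ha1 was higher in Intestine, a call lost in 10 alternatives. Over all tested genes these shares were 6.51% and 5.42%. Those 4 became 1 without Intestine replicate 3 and 2 without any other library except Lung replicate 1.

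Antigen presentation genes of class II were higher in Intestine in part, at 4 of 17 with none higher in Lung and a median of 0.72. The count was 1 without any one Intestine library, 1 without Lung replicate 2, 2 without Lung replicate 3 and 7 without Lung replicate 1. H2-Ab1, a class II chain, had 511, 206 and 275 in Intestine, 184, 106 and 31.2 in Lung and 1.02 to 2.97 in Blood, and lost its call in 11 alternatives. Cd74, the class II chaperone, had 1859, 1091 and 1278 in Intestine, 948, 489 and 125 in Lung and 13.3 to 30.2 in Blood, and did not pass (log2 difference 1.82, adjusted p = 0.055). Lgmn, a lysosomal protease, had 170, 198 and 331 in Intestine and 52.9, 31.2 and 14.7 in Lung, and was called in every alternative. Both tissues were far above Blood for H2-Ab1 and Cd74. The tissue macrophage sum was higher in Intestine than in Lung, but Lung (716 to 1262) overlapped with Blood (614 to 901). In Lung, the B cell sum was 365 to 1114 against 129 to 209 in Blood. The dendritic cell sum in Lung was 74.5 to 320 against 23.5 to 43.3 in Blood. The part of these cells in the class II levels was not tested. The 21 class I genes gave 1 call each way, H2-D1 toward Lung and Calr toward Intestine, close to the 6.51% and 5.42% of all genes. H2-D1 lost its call in 5 of 20 alternatives and Calr in 9, among them without any one Intestine library, and 3 genes were higher in Intestine without Lung replicate 1.

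Cell cycle genes gave 1 call among 28, Hmgb2, toward Lung, against 6.51% of all tested genes. Mki67, the proliferation antigen, had 72.7, 50.2 and 75.7 in Intestine, 37.8, 52.5 and 18.02 in Lung and 123 to 144 in Blood, and did not pass (log2 difference 0.96, 95% interval from -0.06 to 1.98). Of 22 heat shock genes, 2 were higher in Intestine (Hsp90b1 and Hsph1) and 1 in Lung (Dnaja1), beside 5.42% and 6.51% of all genes. The Intestine count was 0 without Intestine replicate 3, 7 without Lung replicate 1 and 1 without any other single library. Dnaja1 lost its call in 9 of 20 alternatives, and no member was higher in Lung without any one Intestine library or without Lung replicate 2. Hsp90b1, an endoplasmic reticulum chaperone that is abundant in secretory cells, had 2110, 1000 and 1463 in Intestine and 615, 484 and 198 in Lung. Of 15 clock genes, Per1 was higher in Lung and Rora in Intestine, 1 call each way against 6.51% and 5.42% of all genes. Rora lost its call in 8 of 20 alternatives, among them without any one Intestine library or Lung replicate 2, and Per1 in 3.

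Genes of IgA plasma cells were among the largest differences toward Intestine. Of 10 tested plasma cell genes, 8 were higher in Intestine and none in Lung, with a median of 3.50, and the count was 5 without Intestine replicate 1, Intestine replicate 3 or Lung replicate 2. Igha (chr12:113254830-113260236, - strand), the constant region of the IgA heavy chain, had 16707, 4293 and 10150 in Intestine and 25.7, 11.3 and 0.0561 in Lung (log2 difference 10.32, SE 0.87, adjusted p = 4.9e-05). Jchain, which joins IgA into dimers, had 5677, 2291 and 3660 in Intestine and 80.9, 24.2 and 18.5 in Lung. Igkc, the kappa light chain constant region, had 7946, 2887 and 5292 in Intestine and 131, 134 and 26.6 in Lung. In all 3 genes Intestine replicate 1 was highest and replicate 2 lowest. Of 14 tested B cell genes, 2 were higher in Lung (Pax5 and Ighm), against 6.51% of all tested genes, and 12 did not pass. The count higher in Lung was 1 without Lung replicate 2. Ighm was at 95.8, 35.1 and 69.4 in Intestine against 591, 305 and 151 in Lung.

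Fibroblast genes were higher in Intestine at 17 of 20 tested, against 5.42% of all tested genes, with a median of 3.65. Postn, a matrix protein of activated fibroblasts, had 738, 1683 and 2091 in Intestine and 63.4, 76.6 and 27.7 in Lung (log2 difference 4.72, SE 0.46, adjusted p = 5.9e-05). Col1a2, a type I collagen chain, had 847, 1657 and 1677 in Intestine and 189, 106 and 31.9 in Lung. Smooth muscle genes were higher at 12 of 16, with a median of 3.19, and the count was 7 without Intestine replicate 2 and 7 without Intestine replicate 3. Myh11, the smooth muscle myosin, had 772, 2047 and 1169 in Intestine and 59.2, 81.9 and 10.4 in Lung. Intestine replicate 1 was the lowest of its group for both cell types, whereas it was the highest for plasma cell genes and the mitochondrial share. No enteric neuron or glia gene passed among 8 tested.

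Macrophage genes were higher in Intestine at 11 of 21 tested, with none higher in Lung and a median of 2.36. The count was 5 without Intestine replicate 1, 4 without Intestine replicate 3 and 7 without Lung replicate 2. Apoe, a lipoprotein of macrophages, had 1210, 721 and 935 in Intestine and 219, 121 and 56.9 in Lung. Mrc1, the mannose receptor, had 468, 283 and 537 in Intestine, 184, 103 and 26.9 in Lung and at most 1.495 in Blood. Both genes were thus highest in Intestine without overlap. Alveolar macrophage genes, a list that also holds Mrc1, were higher in Lung at 5 of 13 and higher in Intestine at 1. The Lung count was 3 without Intestine replicate 3, Lung replicate 1 or Lung replicate 2. The summed level of the list overlapped between the tissues, at 447 to 665 in Intestine and 541 to 1616 in Lung. Among the genes higher in Lung was Chil3, also in the monocyte list, at 914, 482 and 129 in Lung against 66.0, 11.1 and 1.99 in Intestine. Ear1 and Ear2, in the same list, have near-identical copies and lost their calls in 8 and 7 alternatives.

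Colon epithelium genes were higher in Intestine at 7 of 18, with a median of 2.42. The 7 were Muc2, Clca1, Fcgbp, Zg16, Agr2, Lgals4 and Pigr, of which the first 5 are products of mucus-making goblet cells. Muc2, the gel-forming mucin, had 123, 141 and 102 in Intestine and no count in Lung, at least 269-fold higher. Epcam, Cdh1, Krt8, Krt18, Krt19 and Vil1, which all gut epithelial cells carry, did not pass.

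Lung epithelium genes were higher in Lung at 12 of 18, with a median of -4.54. Sftpa1, a surfactant protein, had 389, 399 and 81.8 in Lung and 0.0532, 7.93 and 0.0384 in Intestine (log2 difference -6.78, SE 0.87, adjusted p = 0.0003). Ager, a marker of flat alveolar cells, had 131, 122 and 69.0 in Lung and 3.14, 3.78 and 1.65 in Intestine. Slc34a2, a phosphate transporter of surfactant-making cells, had 403, 332 and 84.2 in Lung, and 9.92 in Intestine replicate 2 with no count in the other 2 Intestine libraries. Intestine replicate 2 had the highest sum of this list among the Intestine libraries. Lung replicate 3 held the least of them, and the most of S100a9, Csf3r and Il1b.

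Endothelial genes passed at 4 of 25, all higher in Lung (Aqp1, Adgrf5, Cldn5 and Cdh5), against 6.51% of all tested genes. Their median was -0.48. The count was 1 without Intestine replicate 1, Intestine replicate 3 or Lung replicate 2, 2 without Lung replicate 1 and 7 without Lung replicate 3. Cdh5, the cadherin of vessel walls, had 36.9, 187 and 113 in Intestine and 698, 467 and 153 in Lung, which overlapped, and its call was lost in 13 alternatives. Aqp1, a water channel of capillaries, had 37.1, 68.2 and 23.1 in Intestine and 333, 261 and 108 in Lung. Both tissues were far above Blood, in which Cdh5 was at most 0.299. No gene of the 14 tested for T and NK cells or of the 6 for erythroid cells passed. Among the 6 tissue libraries the erythroid sum was highest in Intestine replicate 1, at 2129, and Blood had 2941 to 8918.

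The Y-linked genes Ddx3y and Eif2s3y were present in all 6 libraries, Ddx3y at 72.6 to 103 in Intestine and 117 to 176 in Lung, and neither passed. In Blood, Kdm5d and Uty overlapped with both tissues, whereas Ddx3y was 11.4, 1.69 and 1.61. Blood libraries thus differed from both tissues in part of the Y-linked genes, and the part of sex in the Blood levels given here was not tested.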

How the data were processed

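The deposited values are a signal per gene in each library: the authors' table holds, as read from its values, estimated counts with 0.5 added, scaled to 1e6 of the effective library size (itself raised by 1) and left uncorrected for gene length, although its name says TPM. The submitters' processing notes name CASAVA, RSEM 1.3.1, limma and mm10 (the same build as GRCm38), and the annotation is not given in the sources used here. Reads were 61-nt single ends from amplified RNA, per the labels' protocols. Estimated counts were recovered from each library's floor, and 55.0% to 66.8% of values above the floor came out whole (tolerance 0.01), so no count model was used.

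GENCODE vM21 named 31899 of 32328 identifiers. Genes that reached 1 in 3 or more of these 6 libraries were fitted with limma 3.58.1 in R 4.3.3 (2 group means, 4 residual degrees of freedom, trended prior, log2(value + 1), Benjamini-Hochberg at 0.05), a procedure tested on simulated data. In that simulation, with a dispersion of 0.25, 1 of 50 genes changed 2-fold was recovered, 20 of 50 at 4-fold and 45 of 50 at 8-fold. A gene that did not pass may therefore still differ between the tissues. Log2 differences understate changes of low genes. Where a group had no count, the fold is a lower bound, taking 3 counts in each such library as its limit (counting error only).

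Members and gene lists were chosen with earlier results of these data known. List members may recur in several lists. Lists are described by counts and medians, with no test. Named genes followed a rule: the 12 largest passing protein-coding differences each way with a mean of at least 20 and no overlap, outside the marker lists, up to 6 members per list by adjusted p, and a fixed set. Ptgs2, Ccrl2, Elane and list members given only as passing or not were named after their values were seen. Of 20 alternatives tried, those that moved the count of calls by over 1.5 times are given in the closing section. Values of genes with near-identical copies are uncertain. Some genes that this rule names are not reported here.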

Additional observations from a re-analysis of the deposited data

How the results depend on the processing

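Against 1599 passing genes (726 higher in Intestine and 873 higher in Lung), the count was 635 (245 and 390) with no filter on low values, 2618 (1544 higher in Lung) in a fit of 15 libraries without Skin, 4234 (2046 and 2188) with a weight per library, and 807 (454 and 353) with no trend in the prior. Leaving out 1 library gave 827 to 1942 calls, 296 to 901 higher in Intestine and 432 to 1041 higher in Lung. Rescaling without mitochondrially encoded genes gave 1401 calls (705 and 696), quantile normalization 1681, voom weights on the estimated counts 1383 (526 and 857). With 1 library left out, the difference in mitochondrial share was 5.99 to 13.5 points, and the other alternatives do not enter it. The count of 9 of 13 mitochondrially encoded genes was 0 with no filter on low values and 1 with no trend in the prior. In each of the 20 alternatives, every gene called both there and in the reported fit had the same direction. Of 204 named genes that passed, 111 kept the call in all of them. The cause of these changes was not tested, except that leaving out a library also leaves fewer samples. Replicate numbers are shared between the tissues in the labels. Same-numbered libraries did not deviate together (correlations -0.04, 0.03 and 0.01), no library correlated best with its own number, and the fit with the replicate number as a block, which does not rest on a known pairing, gave 1687 calls. The lowest depth, 2.94 times 1e6 estimated counts in Lung replicate 1, limits what could be detected there.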
